A study of Rattus norvegicus with 12 samples.

Results

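Asns, Phgdh, Psat1, Psph, Shmt2, Mthfd2, Cth, Cbs, Pycr1 and Aldh18a1 encode enzymes that make asparagine, serine, glycine, one-carbon units, cysteine and proline. They were followed in tumor and normal rat liver cells that had been cultured with or without arginine. A gene was included through every probe set whose array annotation gives its symbol and no other. This found 1 probe set for each of 9 of the 10 enzymes, out of 10412 genes with such a probe set on the array. Pycr1 carried none and has no value here. RNA came from GP7TB cells (tumor cells), a line transformed by repeated brief exposure to N-methyl-N-Nitro-N-nitrosoguanidine that forms tumors when put back into rats, and from WB-F344 cells (normal cells), the diploid liver epithelial line of an adult male Fischer-344 rat from which GP7TB was derived. Each line stands alone for its cell type. At about 80% confluence the cells were moved to Chee's Essential Medium for 18 hours. The arginine-deficient cultures received no added arginine and the arginine-sufficient cultures 0.168 g/l of L-Arginine HCl. All 4 groups were given 5% fetal bovine serum that had not been dialysed, which brings some arginine of its own. Each group had 3 cultures, 1 from each of 3 experiments, and each culture had 1 RAE230A array, 12 in all.

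Cells that run short of an amino acid activate the kinase GCN2, which slows translation in general and raises that of the transcription factor ATF4. ATF4, with a C/EBP partner, binds composite elements near genes of amino acid transport and synthesis, of which Asns is the textbook case. Serine is made from a glycolytic intermediate by Phgdh, Psat1 and Psph in turn. Shmt2 then turns serine into glycine in mitochondria, and Mthfd2 oxidises the one-carbon unit that this releases, which cells use to make nucleotides. Cbs and Cth carry sulfur from homocysteine to cysteine, and Aldh18a1 and Pycr1 make proline from glutamate.

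The values are signals, the brightness of a probe set on a linear scale with each array scaled to a common mean. Array medians ran from 173 to 226, and arrays of the same group correlated at 0.928 to 0.967 in log2 signal, taken over probe sets that do not vary independently. All 9 probe sets were tested with limma among 9745 that were bright enough, that is, among the highest 54% of the array in at least 3 arrays. Changes are log2 differences ± the standard error (n = 3 arrays per group), and a change passed the test at an adjusted p under 0.05. Of the 9 genes, 7 were this bright on every array, Cth on 10 arrays and Cbs on 6. None of the 7 hepatocyte markers with a probe set, Alb (albumin) among them, reached this brightness in 3 arrays, whereas 2 of the 5 biliary and liver epithelial markers did, the keratins Krt8 and Krt7, and Krt18, Krt19 and Epcam did not. All 4 mesenchymal markers did, among them the intermediate filament Vim. Not all of these were bright in both lines. Col1a2 was this bright on 6 arrays, with group means of 73 and 82 in tumor cells against 20794 and 22469 in normal cells. Krt7 had group means of 249 and 291 in tumor cells against 4544 and 5845 in normal cells. The 3 leukocyte markers and Pecam1, an endothelial marker, did not reach this brightness in 3 arrays either. In RNA of whole cultures, fewer cells and less RNA per cell cannot be told apart. All tumor arrays were scanned on 1 day and the normal arrays on 3 others, and the cell types shared no chip lot. Differences between the cell types therefore cannot be told apart from those between scan days or chip lots.

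Promoters are shown because most of these genes changed together. In the RefSeq sequences (assembly GRCr8) from 250 bases before to 50 after the start of a gene, which hold 9 of the 10 genes, the C/EBP-ATF composite element TGATGNAAN was searched on both strands. It was found in 1 of the 9, that of Pycr1, against 3.97% of the 33469 promoters. GTTACA, the other nutrient-sensing element known from Asns, was in 0 of 9 and in 9.01% of all. Asns itself thus matched neither element in this window, which limits what these counts say of the other genes. CCAAT, the box bound by NF-Y and a motif added after the sequences had been seen, was in 6 of 9 and in 37.5% of all. The 6 were Phgdh, Psat1, Mthfd2, Cth, Cbs and Pycr1. Of these, Psat1 and Cbs did not pass the test for a change without arginine, and Pycr1 has no value here. Psat1 passed in tumor cells and in the mean only when cultures were paired by experiment. Asns, Psph and Shmt2 held no CCAAT, so the count does not follow which genes changed. The stretches shown are the composite element of Pycr1 (chr10:106420913-106420972, minus strand, bases -160 to -101 from the start) and the region just before the start of Mthfd2 with its 3 CCAAT boxes (chr4:117380351-117380460, minus strand, bases -110 to -1). Capitals mark the motif, read as ATTGG where it lies on the other strand. The matches shown do not overlap each other, and a missing match says only that these letters are not in this window.
Pycr1: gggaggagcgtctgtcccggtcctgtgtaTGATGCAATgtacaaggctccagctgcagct
Mthfd2: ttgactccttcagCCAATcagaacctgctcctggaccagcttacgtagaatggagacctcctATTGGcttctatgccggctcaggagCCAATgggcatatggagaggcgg

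The first question was which of these enzymes change when arginine is withdrawn. In tumor cells 6 of the 9 rose, namely Asns, Phgdh, Psph, Mthfd2, Cth and Aldh18a1, where 0.965% of all tested probe sets rose. In normal cells 2 of the 9 rose, Mthfd2 and Psph, against 0.133% of all. With both cell types averaged 7 rose, the 6 of tumor cells and Shmt2, against 1.60% of all. None fell, where 0.944% of all tested probe sets fell in tumor cells, 0.0308% in normal cells and 1.35% in the mean, and none of the 9 was lower at an unadjusted p under 0.05. The median log2 change of the 9 genes was 1.36 in tumor cells and 1.02 in normal cells, and that of all tested probe sets was -0.05 and -0.04.

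The arginine-deficient and the arginine-sufficient culture of an experiment belong together by the codes of their RNA, and a paired fit, with the experiment as its block, used this. The pairing is least sure for experiment 2 of tumor cells. With group means removed, its arrays correlated at 0.04, and its arginine-deficient array at 0.28 with the arginine-sufficient array of experiment 3. The paired fit called 8 of the 9 genes higher in tumor cells (4.79% of all), 6 in normal cells (1.39%) and 8 in their mean (6.10%). Cbs was the gene left out in tumor cells and in the mean, and Psat1, Cbs and Aldh18a1 were those left out in normal cells. Without any model, every arginine-deficient array lay above every arginine-sufficient array for 8 genes in tumor cells, all but Cbs, where 9.69% of tested probe sets did so. In normal cells this held for 5 genes, Asns, Phgdh, Psph, Mthfd2 and Cth, where 6.18% did.

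**Figure D1:**
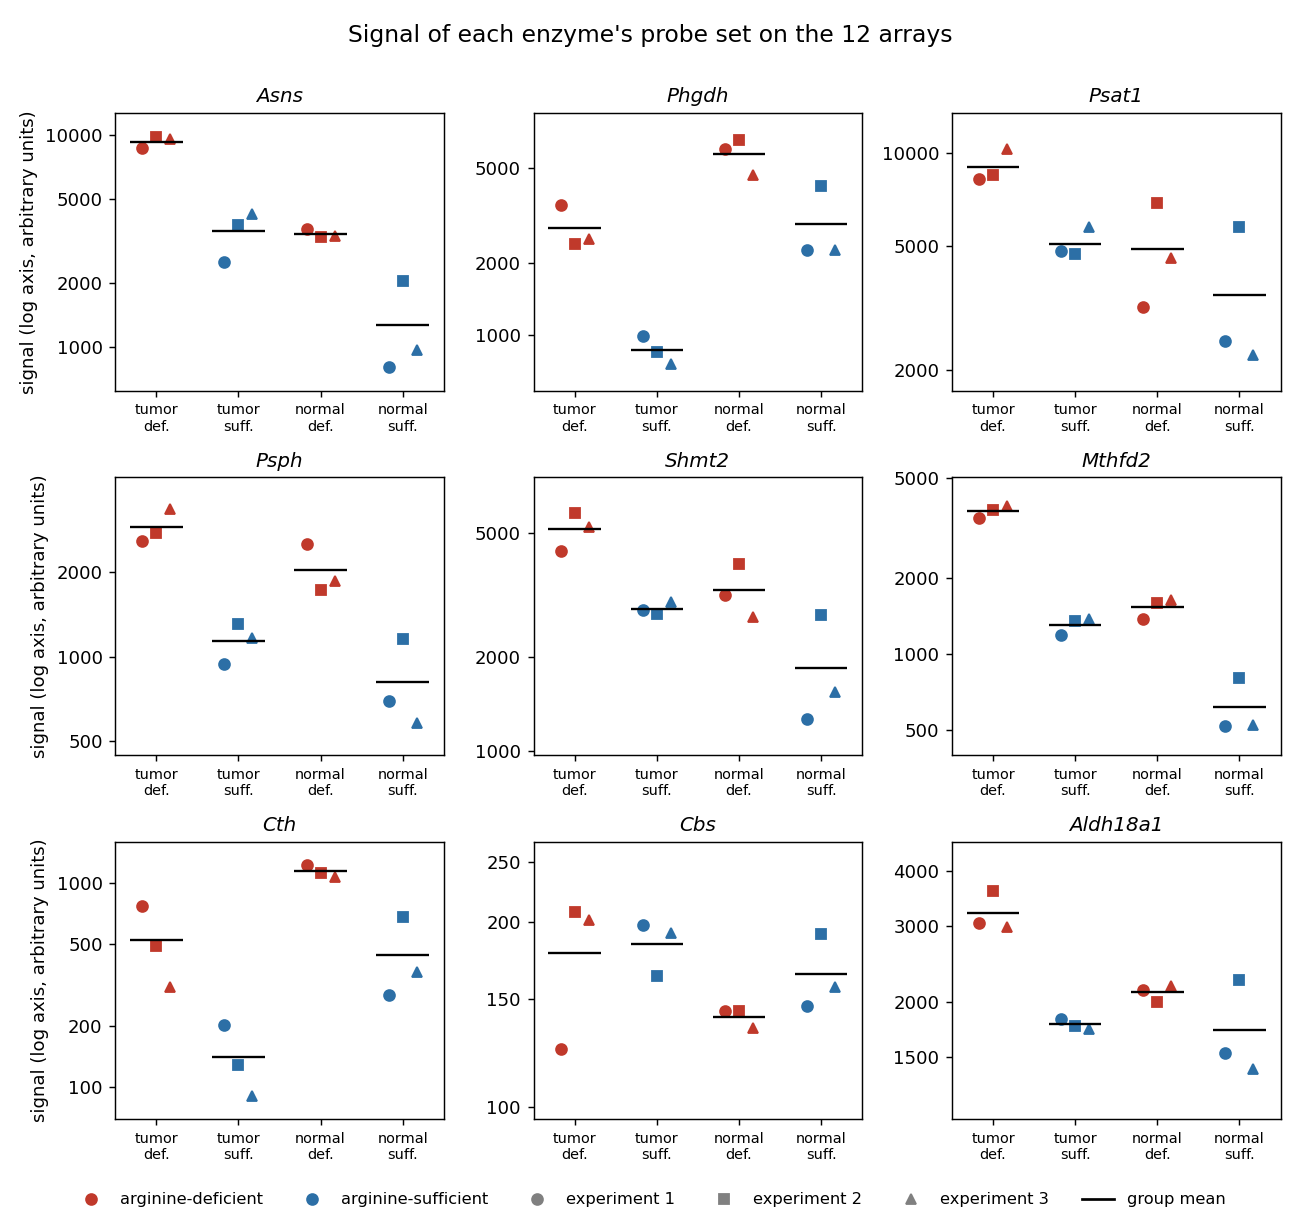
Signal of the 9 probe sets (log axis, arbitrary units, with a scale of its own for each gene) on every array, with arginine-deficient arrays in red, arginine-sufficient arrays in blue, 1 symbol for each experiment and the group mean as a line. Red lies wholly above blue within a cell type for 8 genes in tumor cells and 5 in normal cells, and the square of experiment 2 is the highest of the 3 arginine-sufficient normal arrays for all 9 genes.

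Asparagine synthetase, Asns, makes asparagine from aspartate with glutamine as the nitrogen donor. Its signal in arginine-deficient tumor cells was 8656, 9743 and 9551 in experiments 1 to 3, against 2522.5, 3768.5 and 4240.4 in arginine-sufficient tumor cells. In normal cells it was 3599, 3295.5 and 3326 without arginine and 807, 2037 and 969.6 with it. The arginine-deficient arrays were close together in both cell types, and the spread lay in the arginine-sufficient ones, where experiment 1 was low in tumor cells and experiment 2 high in normal cells. Asns rose by 1.44 ± 0.28 in tumor cells (adjusted p = 0.0228), 2.71-fold. In normal cells the difference was 1.54 ± 0.28, 2.91-fold, with an adjusted p of 0.0555, and of 0.00654 in the paired fit. The call in tumor cells was lost when leaving out the arginine-deficient array of experiment 2 or 3 or the arginine-sufficient array of experiment 1 or 2, with an adjusted p of at most 0.107. Leaving out the arginine-sufficient array of experiment 2 gave an adjusted p of 0.00232 in normal cells.

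Of the 3 enzymes of serine synthesis, Phgdh and Psph rose in tumor cells and Psph also in normal cells, while Psat1 passed in neither. Phgdh, which commits 3-phosphoglycerate to serine, had signals of 3502, 2396 and 2505 in arginine-deficient tumor cells, against 983, 848 and 755 in arginine-sufficient ones. In normal cells its signals were 5974, 6516 and 4686 without arginine and 2271.5, 4215 and 2268 with it. In both cell types every arginine-deficient array was above every arginine-sufficient one, though by little in normal cells, where experiment 2 with arginine came near experiment 3 without it. Phgdh rose by 1.69 ± 0.24 in tumor cells (adjusted p = 0.00502), 3.22-fold, and kept its call whichever array was left out. In normal cells the difference was 1.02 ± 0.24 with an adjusted p of 0.155, of 0.00654 in the paired fit, and of 0.0243 without the arginine-sufficient array of experiment 2.

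Psat1, the aminotransferase of the middle step, had signals of 8261, 8502 and 10319.6 in arginine-deficient tumor cells and 4832, 4724.5 and 5751 in arginine-sufficient ones. In normal cells they were 3184, 6911 and 4568 without arginine and 2473, 5783 and 2224 with it. The tumor groups were apart, while in normal cells experiment 2 was far above the others in both media and the groups overlapped. The differences of 0.82 ± 0.33 in tumor cells (adjusted p = 0.236) and 0.55 ± 0.33 in normal cells (adjusted p = 0.643) did not pass. Within experiments, however, the log2 ratios in tumor cells were 0.77, 0.85 and 0.84, and in the paired fit the adjusted p was 0.00441 in tumor cells and 0.0631 in normal cells.

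Psph, the phosphatase that releases serine, had signals of 2585, 2775 and 3362 in arginine-deficient tumor cells, against 944, 1305 and 1165 in arginine-sufficient ones. Normal cells gave 2533, 1724 and 1862 without arginine and 696.5, 1157 and 579.7 with it. No group overlapped its counterpart. Psph rose 2.56-fold in tumor cells, by 1.36 ± 0.25 (adjusted p = 0.0168), and 2.59-fold in normal cells, by 1.37 ± 0.25 (adjusted p = 0.0462). The call in tumor cells was lost when leaving out the arginine-deficient array of experiment 2 or 3 or the arginine-sufficient array of experiment 1 or 2, at an adjusted p of at most 0.076. That in normal cells, close to the threshold, was lost without any 1 of 10 arrays, all but the normal arginine-deficient and arginine-sufficient arrays of experiment 2, at an adjusted p of at most 0.236.

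Of the mitochondrial one-carbon enzymes, Mthfd2 rose in both cell types and Shmt2 in their mean. Mthfd2 had signals of 3459, 3733 and 3863 in arginine-deficient tumor cells, against 1185.5, 1349 and 1378.5 in arginine-sufficient ones. Normal cells had 1371, 1594 and 1633 without arginine and 517, 806 and 523 with it. The arginine-sufficient normal array of experiment 2 was above the other 2 of its group, and the media did not overlap in either cell type. Mthfd2 rose 2.83-fold in tumor cells, by 1.50 ± 0.18 (adjusted p = 0.00162), and 2.54-fold in normal cells, by 1.35 ± 0.18 (adjusted p = 0.011). Its call in tumor cells held whichever array was left out. In normal cells it was lost when leaving out the arginine-deficient array of experiment 3 or the arginine-sufficient array of experiment 1 or 3, at an adjusted p of at most 0.0973.

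Shmt2, the serine hydroxymethyltransferase that feeds Mthfd2, had signals of 4382, 5777 and 5214.5 in arginine-deficient tumor cells, against 2819, 2739 and 2987.5 in arginine-sufficient ones. In normal cells it had 3160.3, 3956 and 2694 without arginine and 1263.5, 2722 and 1541 with it. The tumor groups were apart, and the normal groups overlapped only through experiment 2 with arginine and experiment 3 without. The differences of 0.84 ± 0.24 in tumor cells (adjusted p = 0.105) and 0.89 ± 0.24 in normal cells (adjusted p = 0.253) did not pass on their own, while their mean rose by 0.86 ± 0.17 (adjusted p = 0.0184). In the paired fit the adjusted p was 0.00559 in tumor cells and 0.0152 in normal cells. Without the arginine-sufficient normal array of experiment 2 it was 0.0377 in tumor cells and 0.0243 in normal cells.

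Of the transsulfuration pair, Cth rose and Cbs did not. Cth, which cleaves cystathionine to cysteine, had signals of 772, 490.4 and 309 in arginine-deficient tumor cells, against 202, 128 and 90.6 in arginine-sufficient ones. Normal cells gave 1228, 1120.3 and 1067 without arginine and 282, 682 and 368 with it. In tumor cells experiment 1 was the highest and experiment 3 the lowest in both media, and the log2 ratios within experiments, 1.93, 1.94 and 1.77, were closer to each other than the levels. Cth rose by 1.88 ± 0.37 in tumor cells (adjusted p = 0.0244), 3.68-fold. Of the 3 arginine-sufficient tumor arrays 2, at 128 and 90.6, were below the brightness threshold, so the size of this change is uncertain, and with such signals raised to the threshold it was 1.50 ± 0.33 (adjusted p = 0.0293). In normal cells the difference was 1.46 ± 0.37 with an adjusted p of 0.191, and of 0.00875 in the paired fit. The call in tumor cells was lost when leaving out the arginine-deficient array of experiment 1 or 2 or the arginine-sufficient array of experiment 2 or 3, at an adjusted p of at most 0.102.

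Cbs, which condenses homocysteine with serine, had signals of 124.5, 207.5 and 201.5 in arginine-deficient tumor cells and 198, 163 and 192 in arginine-sufficient ones. In normal cells they were 143, 143 and 135 without arginine and 146, 191 and 157 with it. All lie about the brightness needed for testing, which was 146 to 191 depending on the array. The differences were -0.08 ± 0.25 in tumor cells (adjusted p = 0.929, 95% interval -0.63 to 0.46) and -0.22 ± 0.25 in normal cells (adjusted p = 0.845, -0.77 to 0.33). The tumor groups overlapped, and in normal cells every arginine-deficient array was below every arginine-sufficient one, by as little as 143 against 146.

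Aldh18a1, which makes the proline precursor pyrroline-5-carboxylate from glutamate, had signals of 3041, 3598 and 2987 in arginine-deficient tumor cells, against 1836, 1768.5 and 1743 in arginine-sufficient ones. Normal cells had 2138, 2005 and 2182 without arginine and 1529.8, 2250.5 and 1405 with it. The groups were apart in tumor cells, and in normal cells experiment 2 with arginine exceeded all arginine-deficient arrays. Aldh18a1 rose by 0.84 ± 0.18 in tumor cells (adjusted p = 0.0305), 1.79-fold, while the difference in normal cells was 0.32 ± 0.18 (adjusted p = 0.616, and 0.295 when paired). The call in tumor cells was lost without any 1 of the 6 tumor arrays, at an adjusted p of at most 0.136.

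Averaged over both cell types, the log2 change was 1.67 ± 0.26 for Cth (adjusted p = 0.00466), 1.49 ± 0.20 for Asns (adjusted p = 0.00142), 1.42 ± 0.13 for Mthfd2 (adjusted p = 9.87e-05), 1.37 ± 0.17 for Psph and 1.36 ± 0.17 for Phgdh (adjusted p = 0.00116 for both). These 5 kept their calls whichever array was left out. Aldh18a1, at 0.58 ± 0.13 (adjusted p = 0.0273), lost its call without any 1 of 8 arrays, at an adjusted p of at most 0.0849. Those were all but the normal arginine-deficient and arginine-sufficient arrays of experiment 2 and the tumor arginine-deficient arrays of experiments 1 and 3. Shmt2 lost its call without either tumor array of experiment 2 (adjusted p of at most 0.0608). Psat1, at 0.69 ± 0.23, did not pass (adjusted p = 0.127, 0.00136 in the paired fit, and 0.0197 without the arginine-sufficient normal array of experiment 2).

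The size of the change varied less between experiments in tumor cells than in normal cells. Median log2 ratios in tumor cells were 1.45, 1.09 and 1.17 in experiments 1 to 3, with 5, 7 and 5 genes at 2-fold or more. In normal cells the ratio between media (arginine-deficient over arginine-sufficient) was lowest in experiment 2 for all 9 genes, where this was so for 32.2% of all tested probe sets. No gene reached 2-fold in that experiment, in which the median log2 ratio was 0.58, whereas 6 genes did so in experiment 1 (median 1.40) and 6 in experiment 3 (median 1.05). Experiment 2 of normal cells also moved least over all tested probe sets, with 2.46% at 2-fold or more in either direction, against 7.05% in experiment 1 and 5.57% in experiment 3.

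**Figure D2:**
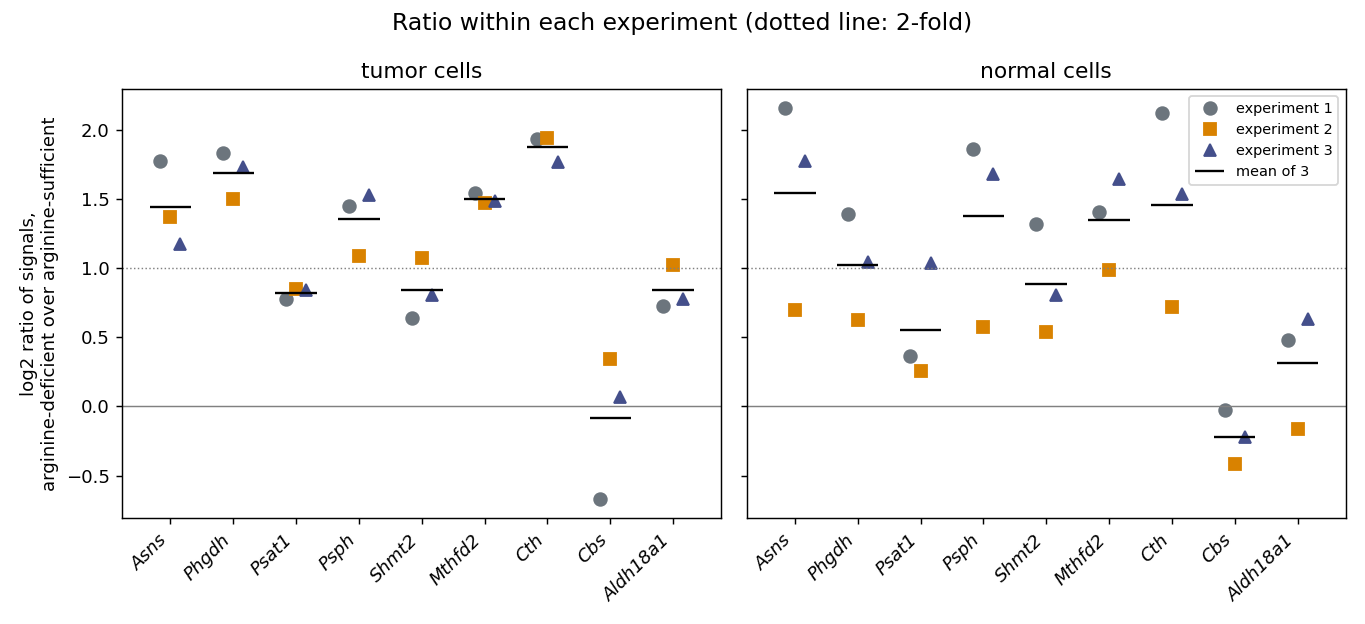
Log2 ratio between media (arginine-deficient over arginine-sufficient signal) within each experiment, for tumor cells on the left and normal cells on the right, with 1 symbol for each experiment, the mean of the 3 as a black line and 2-fold dotted. Experiment 2 gives the lowest ratio for all 9 genes in normal cells and for 3 of them in tumor cells.

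The lower ratios went with a high arginine-sufficient array. With each gene centred on the mean of its 6 arrays of a cell type, the average of the 9 genes in tumor cells was 0.54, 0.61 and 0.56 without arginine in experiments 1 to 3, and -0.57 on each of the 3 arrays with arginine. In normal cells it was 0.45, 0.55 and 0.38 without arginine, and -0.78, 0.12 and -0.72 with arginine. Thus 1 of the 6 arginine-sufficient arrays, that of experiment 2 of normal cells, lay above 0. It was the only array of its scan day and its chip lot, and its labelled arginine status matched the array's run record, as it did on all 10 arrays whose record states it. The part of scan day, lot and culture in its level was not tested. With this array left out, 7 genes passed in tumor cells and 5 in normal cells. Within the chip lots of tumor cells the median log2 ratio of the 9 genes was 1.51 and 0.99, and within the scan days of normal cells that held both media 1.05 and 1.48. Of these, only the 1.05 stayed within 1 experiment. The 0.99 set the arginine-deficient array of experiment 1 against the arginine-sufficient array of experiment 2, recorded with and without trypsin. The 1.48 set the arginine-deficient arrays of experiments 1 and 2 against the arginine-sufficient array of experiment 1.

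**Figure D3:**
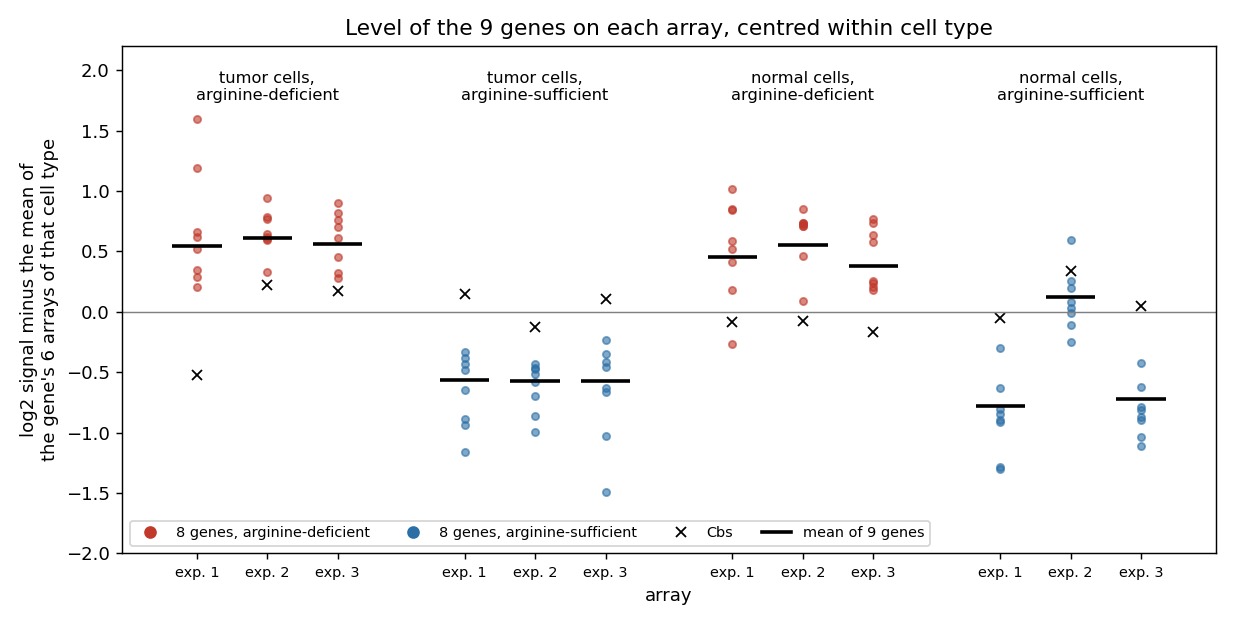
Log2 signal of each gene minus the mean of its 6 arrays of the same cell type, for all 12 arrays in 4 groups, with 8 genes as dots, Cbs as a cross and the mean of the 9 as a bar. The mean is between 0.38 and 0.61 on the 6 arginine-deficient arrays and between -0.78 and -0.57 on the arginine-sufficient ones, other than experiment 2 of normal cells at 0.12.

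The next question was whether tumor cells respond to arginine differently from normal cells. For these genes no difference was detected. Set against normal cells, the response of tumor cells differed past the threshold of limma for 0 of the 9 genes (0 also at an unadjusted p under 0.05), and for 0% of all tested probe sets. The lowest adjusted p was 0.889. In the paired fit it was 0 of 9 again, and 5 of the 9745 probe sets (0.0513%), with a lowest adjusted p of 0.193, that of Phgdh. At an unadjusted p under 0.05 the paired fit had 2 of the 9, Phgdh and Aldh18a1, and 13.6% of all tested probe sets. Their paired 95% intervals lay above 0, that of Phgdh at 0.21 to 1.12 and that of Aldh18a1 with a lower bound of 0.05. The intervals without pairing leave room for sizable differences. The difference in response of Phgdh was 0.66 (95% interval -0.08 to 1.41), that of Aldh18a1 0.53 (-0.01 to 1.07) and that of Cth 0.42 (-0.72 to 1.56). For Mthfd2 it was 0.15 (-0.40 to 0.71) and for Asns -0.10 (-0.97 to 0.76). The other 4 genes lay between -0.05 and 0.27.

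Tumor and normal cells differed more clearly in the level of these mRNAs. Without arginine 7 of the 9 genes differed, where 40.7% of all tested probe sets did, and with arginine 5 of the 9, where 34.6% did. Asns, Mthfd2 and Shmt2 were higher in tumor cells in both media, and Phgdh and Cth were lower in both. Psat1 and Aldh18a1 were higher in tumor cells without arginine and did not pass with it, and the comparison of responses did not show these to differ. Psph and Cbs passed in neither medium. These shares stand against backgrounds of over 1 probe set in 3. Other genes that set the lines apart include mesenchymal markers. Vim, Col1a1, Col1a2 and Acta2 were all 4 bright enough to be tested. Their signals summed to 12025 to 16368 in arginine-deficient tumor cells and 11465.5 to 13555 in arginine-sufficient ones. In normal cells the sums were 45634 to 62941 and 57861 to 73502. Most of the tumor sums was Vim, which differed by -0.26 ± 0.16 without arginine (adjusted p = 0.218) and -0.65 ± 0.16 with it (adjusted p = 0.00738). Col1a1 differed by -6.21 ± 0.25 and -5.47 ± 0.25, and Acta2 by -1.88 ± 0.24 and -2.01 ± 0.24. Col1a2 was below the brightness threshold on the tumor arrays, so its differences of -8.26 and -8.31 are uncertain in size. The part of these markers in the differences of the 9 genes was not tested.

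Without arginine, Asns was 1.45 ± 0.28 higher in tumor cells (adjusted p = 0.00124), and with arginine 1.55 ± 0.28 (adjusted p = 0.00093). The arginine-sufficient tumor arrays, at 2522.5 to 4240.4, overlapped the arginine-deficient normal arrays, at 3295.5 to 3599. Mthfd2 stood likewise, 1.27 ± 0.18 higher without arginine (adjusted p = 0.000131) and 1.11 ± 0.18 with it (adjusted p = 0.000438). Shmt2 was 0.66 ± 0.24 higher without arginine (adjusted p = 0.0452) and 0.71 ± 0.24 with it (adjusted p = 0.0378), and lost these calls without any 1 of 8 and 5 of the 12 arrays, at an adjusted p of at most 0.154 and 0.169.

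Phgdh went the other way. It was lower in tumor cells, with a difference of -1.04 ± 0.24 without arginine (adjusted p = 0.00431) and -1.70 ± 0.24 with it (adjusted p = 0.000145), and its highest arginine-deficient tumor array, at 3502, was below the lowest arginine-deficient normal array, at 4686. The estimates for the next steps of the same pathway were above 0. Psat1 was 0.95 ± 0.33 higher in tumor cells without arginine (adjusted p = 0.032) and differed by 0.68 ± 0.33 with it (adjusted p = 0.124). Psph differed by 0.52 ± 0.25 (adjusted p = 0.107) and 0.54 ± 0.25 (adjusted p = 0.108). Cth was lower in tumor cells, by a difference of -1.22 ± 0.37 without arginine (adjusted p = 0.0189) and -1.64 ± 0.37 with it (adjusted p = 0.00414). The second value rests on the same dim arginine-sufficient tumor arrays, and was -1.26 ± 0.33 with low signals raised to the threshold (adjusted p = 0.01). Aldh18a1 was 0.60 ± 0.18 higher without arginine (adjusted p = 0.0153) and differed by 0.08 ± 0.18 with it (adjusted p = 0.772). Without arginine, the call of Psat1 was lost without the normal array of experiment 1 or 3 or the tumor array of experiment 2 or 3 (adjusted p of at most 0.139), that of Cth without the normal array of experiment 1 or the tumor array of experiment 3 (at most 0.0944), and that of Aldh18a1 without the tumor array of experiment 2 (0.0716). With arginine, Psat1 and Psph passed once the normal array of experiment 2 was left out (adjusted p = 0.00692 and 0.0134).

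**Figure D4:**
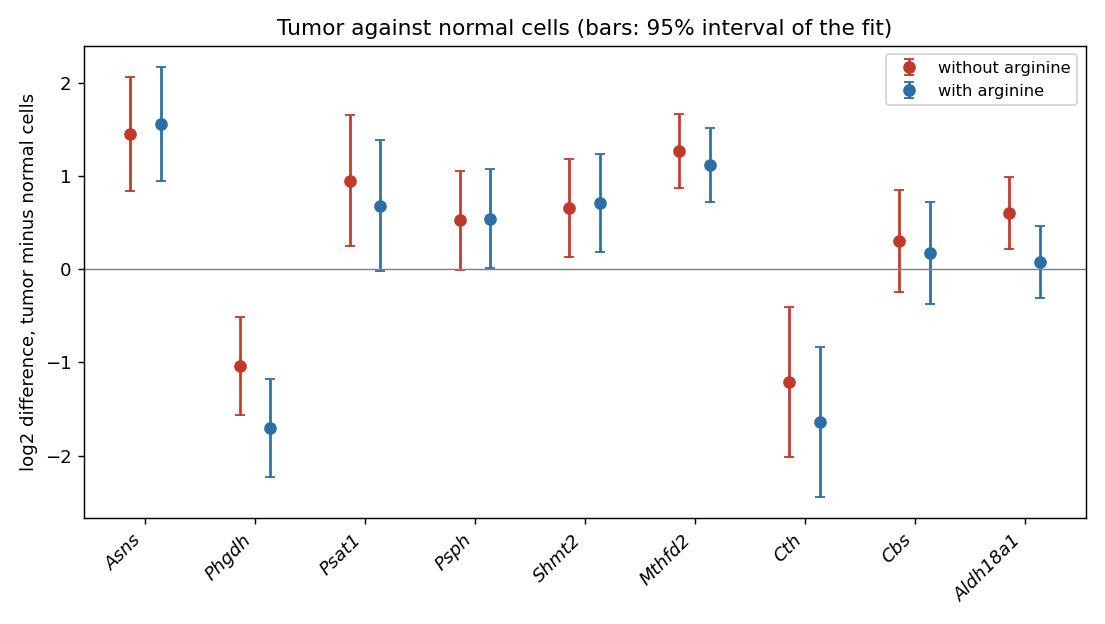
Log2 difference of tumor minus normal cells for the 9 genes, without arginine in red and with arginine in blue, with bars for the 95% interval of the fit. Asns and Mthfd2 lie above 0 and Phgdh and Cth below 0 in both media.

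The order of the 4 groups differed between the genes. By group mean, Asns, Mthfd2 and Shmt2 ran from arginine-deficient tumor cells at the top to arginine-sufficient normal cells at the bottom, and the arginine-sufficient tumor and arginine-deficient normal groups between them overlapped for each of these 3. Psph and Aldh18a1 had the same top and bottom groups, with arginine-deficient normal cells next to the top, and their lowest 2 groups overlapped. Psat1 was highest in arginine-deficient tumor cells, and its other 3 groups overlapped. Phgdh and Cth were highest in arginine-deficient normal cells and lowest in arginine-sufficient tumor cells. For Cth the arginine-deficient tumor arrays, at 309 to 772, overlapped the arginine-sufficient normal arrays, at 282 to 682, and for Phgdh the same groups overlapped at 2396 to 3502 and 2268 to 4215.

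Among other enzymes of the same and neighbouring pathways, none passed the test as higher and 2 as lower. Of 57 genes listed in folate and glycine metabolism, the methionine cycle and transsulfuration, proline and glutamate metabolism, serine and asparagine breakdown and purine synthesis, 39 had a probe set of their own and 28 were bright enough to be tested. None passed the test of limma as higher in tumor cells, in normal cells or in their mean. At an unadjusted p under 0.05, 3 were higher in each, and 4, 3 and 4 were lower. Of the 9745 tested probe sets, 1491, 920 and 1846 had such a p in either direction. With 0.965%, 0.133% and 1.60% of all tested probe sets higher, a count of 0 among 28 does not set these genes apart. In the mean of both cell types, where 1.35% of all fell, 2 fell, Aldh4a1, which breaks down the precursor that Aldh18a1 makes (-0.89 ± 0.16, adjusted p = 0.012), and Tyms, thymidylate synthase, a user of one-carbon units (-0.77 ± 0.16, adjusted p = 0.0209). The median log2 change of the 28 was 0.07 in tumor cells and -0.08 in normal cells, against 1.36 and 1.02 for the 9 enzymes above. In the paired fit 2 of the 28 rose and 4 fell in tumor cells, where 4.79% and 6.18% of all tested probe sets did. In normal cells 0 rose and 2 fell, against 1.39% and 1.03% of all. In the mean 2 rose and 5 fell, against 6.10% and 8.58% of all, so that the count of those that rose was near the share over all probe sets. Those that rose in the mean were Got1, the cytosolic aspartate aminotransferase (0.54 ± 0.14, adjusted p = 0.0588 without the block and 0.00709 with it), and Mthfd1l (0.55 ± 0.21, adjusted p = 0.182 and 0.0455). The 5 that fell were Aldh4a1, Tyms, Oat, Gldc and Glud1. Oat changed by -0.52 ± 0.13 (adjusted p = 0.0515 without the block and 0.00985 with it). Gldc changed by -0.48 ± 0.18 (adjusted p = 0.167 and 0.0106) and Glud1 by -0.34 ± 0.18 (adjusted p = 0.314 and 0.0295).

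Close relatives of the enzymes that rose gave other values. Shmt1, the cytosolic counterpart of Shmt2, differed by 0.20 ± 0.22 in tumor cells and by -0.66 ± 0.22 in normal cells, and neither passed (adjusted p = 0.723 and 0.329). In the paired fit Shmt1 fell in normal cells (adjusted p = 0.0482) and did not pass in tumor cells (adjusted p = 0.447). Mthfd1, the cytosolic counterpart of Mthfd2, differed by -0.22 ± 0.21 and -0.08 ± 0.21 (adjusted p = 0.691 and 0.951). Mthfd1l, which acts after Mthfd2 in mitochondria, differed by 0.38 ± 0.30 and 0.71 ± 0.30 (adjusted p = 0.603 and 0.473). Of the 37 genes of both sets that were tested, Shmt1, Ahcy and Mat2a (by the brighter of its 2 probe sets) moved in opposite directions in the 2 cell types in every experiment, a pattern seen in 4.30% of all tested probe sets.

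**Figure D5:**
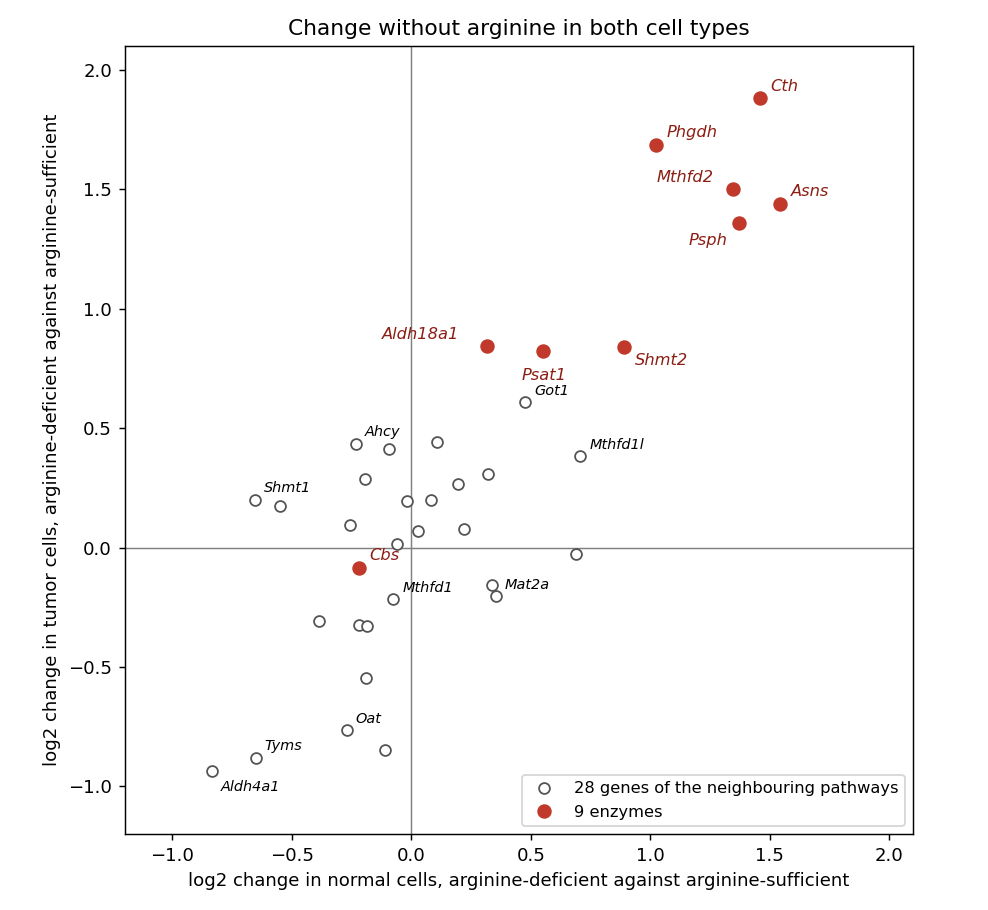
Log2 change of arginine-deficient against arginine-sufficient cells in tumor cells (vertical) and in normal cells (horizontal), for the 9 enzymes in red and the 28 genes of the neighbouring pathways as open circles. The red points other than Cbs lie at 0.82 or more in tumor cells, above all open circles.

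Of the 9 genes, 8 were alike in their pattern over the arrays, and Cbs was not. With signals centred within each cell type, the Pearson correlation of a gene with the mean of the 9 over the 12 arrays was 0.98 for Mthfd2, 0.97 for Asns, 0.96 for Phgdh and Shmt2, 0.95 for Psph, 0.93 for Aldh18a1, 0.92 for Cth, 0.84 for Psat1 and -0.15 for Cbs. Each gene is part of the mean, and all share the arrays and the contrast of media. Among the 7182 other genes compared, the 5 nearest were Rhob at 0.98, Chac1 and Atf4 at 0.98, and Wdr5 and Mars1 at 0.97. Rhob encodes a small GTPase, Chac1 a glutathione-degrading enzyme, Atf4 the transcription factor named above, Wdr5 a scaffold of histone methyltransferases and Mars1 the cytosolic methionyl-tRNA synthetase.

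These genes were picked for likeness to a pattern that mostly follows the media on the same 12 arrays. Their tests for a change are therefore not independent of the choice and are given as a description. Chac1 rose in both cell types, by 1.55 ± 0.22 in tumor cells (adjusted p = 0.00502) and 1.38 ± 0.22 in normal ones (adjusted p = 0.035). Atf4 rose in tumor cells, by 0.92 ± 0.17 (adjusted p = 0.0168), and differed by 0.61 ± 0.17 in normal cells (adjusted p = 0.264). Rhob rose in tumor cells, by 0.84 ± 0.18 (adjusted p = 0.0327), and differed by 0.57 ± 0.18 in normal cells (adjusted p = 0.324). Mars1 differed by 0.76 ± 0.18 and 0.40 ± 0.18 (adjusted p = 0.0523 and 0.527), and Wdr5 by 0.37 ± 0.14 and 0.30 ± 0.14 (adjusted p = 0.205 and 0.533), in tumor and in normal cells. A pattern shared over 12 arrays of 2 media says nothing of shared function.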

How the data were processed

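RNA was measured on 12 Affymetrix RAE230A arrays of rat liver cells, 3 for each of 4 groups. The intensities used are the deposited signals, which the authors made with Microarray Suite 5.0 from its perfect match and mismatch probes, array by array, and brought to a common mean. Arrays give no counts, so that their number limits the precision. Signals below 1 (9 to 24 per array) were set to 1 and log2 was taken. The 57 controls were left out, and 9745 probe sets among the highest 54% of the array in at least 3 of 12 arrays were tested. Of the probe sets, 12777 carry 1 gene symbol in the platform annotation, 311 several and 2778 none. Tests were made in R 4.3.3 with limma 3.58.1, which fitted a mean for each group, with empirical Bayes with an intensity trend and 8 residual degrees of freedom, and Benjamini-Hochberg adjustment over the 9745 probe sets of each of 6 comparisons. The cultures of an experiment were paired through the RNA codes of the array run records and the study's table of arrays. With group means removed, pairs of tumor cells correlated at 0.56, 0.04 and 0.42 and pairs of normal cells at 0.43, 0.42 and 0.38. In tumor cells the arginine-deficient array of experiment 2 correlated better, at 0.28, with the arginine-sufficient array of experiment 3. Experiment 2 of tumor cells was recorded as handled without trypsin and the other 2 with it. With the experiment as a block, 4 residual degrees of freedom remain (the paired fit).

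Named genes are the 10 enzymes, the genes of the pathway lists past the test in an arginine comparison, the close relatives of the enzymes, and the 5 other genes nearest to the mean of the enzymes in Pearson correlation. Got1, Oat, Gldc, Glud1, Ahcy and Mat2a, and the markers, were named after their values were seen. The enzymes and lists were chosen with earlier results of these data known. A gene of the lists was represented by its probe set of the highest mean signal. Alternatives were no filter, the highest 40%, a floor at the 46th percentile, an offset of 16, median centring or quantile normalization, a plain linear model or one with no intensity trend, a block (the experiment, the chip lot or the scan day), either cell type fitted by itself, and leaving out single arrays. Simulated data were used to test the fit. Python 3.11.15 (pandas 2.3.3, numpy 2.4.6, matplotlib 3.10.9) made tables and figures. The study's change calls were not used here.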

Additional observations from a re-analysis of the deposited data

Results flagged for a closer look

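Of 37 genes checked (the 9 enzymes and 28 of the pathway lists), 3 moved one way in every experiment of tumor cells and the other way in every experiment of normal cells. The same was seen in 4.30% of all tested probe sets, and for none of the 3 did the difference between cell types pass the test of limma. Shmt1, the cytosolic serine hydroxymethyltransferase, had log2 ratios of 0.18, 0.07 and 0.35 in tumor cells and -0.43, -0.44 and -1.09 in normal cells, a difference of 0.86 ± 0.31 (adjusted p = 0.824, and 0.143 with the experiment as a block). Within normal cells its fall passed with the block (adjusted p = 0.0482) and not without it (adjusted p = 0.329). Ahcy, which splits S-adenosylhomocysteine, had 0.52, 0.37 and 0.41 in tumor cells and -0.29, -0.11 and -0.30 in normal cells, a difference of 0.67 ± 0.24 (adjusted p = 0.824, and 0.139 with the block). Within tumor cells its rise passed with the block (adjusted p = 0.0341) and not without it (adjusted p = 0.219). Mat2a, which makes S-adenosylmethionine, had -0.22, -0.22 and -0.17 in tumor cells and 0.45, 0.26 and 0.35 in normal cells, a difference of -0.56 ± 0.35 (adjusted p = 0.957, and 0.174 with the block). These values are those of the brighter of its 2 probe sets.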

How the results depend on the processing

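Over all 6 comparisons, 577 of 660 single-gene values kept their direction and their side of the threshold under the alternatives that kept every array or left out an experiment, and 561 of 648 when 1 array was left out. The 6 calls of tumor cells became 1 with a plain linear model, and the 7 of the mean became 4 and the 7 of tumor against normal cells without arginine became 4. The 2 calls of normal cells became 1 with no filter, with 16 added, with median centring or with no intensity trend, 0 with the plain model or with 1 cell type alone, 5 with scan day or chip lot as a block, and 6 with the experiment as a block (replicate block), which pairs the cultures. The arginine-sufficient normal array of experiment 2 is alone in its scan day and its chip lot. With either as a block, its level does not enter the change in normal cells. Leaving out 1 array gave 2 to 7 calls in tumor cells, 0 to 5 in normal cells, 5 to 8 in the mean, 4 to 7 for tumor against normal cells in either medium, and 0 for the difference of responses.

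Leaving out experiment 2 of a cell type was chosen after the data were seen. Without that of normal cells, 4 genes passed in normal cells, 8 in tumor cells and 8 in the mean. Without that of tumor cells, 0 passed in tumor cells, 0 in normal cells, 4 in the mean and 3 between the cells without arginine. Fewer arrays were fitted in either case, and why the counts moved apart was not tested. Without experiment 2 of tumor cells, the log2 changes of the 6 genes in tumor cells were still 0.75 (Aldh18a1, adjusted p = 0.387) to 1.85 (Cth, adjusted p = 0.279), with Mthfd2 at 1.52 (adjusted p = 0.0689).

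Values near 0 changed sign. The change of Cbs in tumor cells became 0.040 with low signals raised and 0.011 with quantile normalization, and ranged from -0.21 to 0.15 with 1 array left out, and Cbs in tumor against normal cells with arginine became -0.032 with low signals raised. Aldh18a1 in that comparison ranged from -0.058 to 0.28. The difference of responses became -0.15 for Psat1 and -0.071 for Mthfd2 with scan day as a block, -0.17 and -0.056 with chip lot, -0.026 for Mthfd2 without experiment 2 of normal cells, 0.12 for Psph and -0.078 for Cbs without that of tumor cells, and 0.019 for Psph with median centring. With 1 array left out it ranged from -0.50 to 0.16 for Asns, -0.37 to 0.18 for Shmt2, -0.31 to 0.19 for Psph, -0.17 to 0.55 for Psat1 and -0.056 to 0.26 for Mthfd2. The chip-lot values of Psat1 and Mthfd2 are the same as with the arginine-sufficient normal array of experiment 2 left out. This array is alone in its lot, so these are not separate checks. The cause of the other sign changes was not tested. Quantile normalization and median centring moved the median of all tested probe sets by up to 0.08. They turned the 94 higher and 92 lower calls of tumor cells into 84 and 57 and into 128 and 63, and the 156 and 132 of the mean into 174 and 109 and into 202 and 83. Depth is unknown for arrays, and Cbs, about as bright as the threshold, was limited by signal over background.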
